A study of Mus musculus with 18 samples.

Results

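Molecular chaperones of the heat shock and DnaJ families were followed in mouse hearts under pressure overload, before and after the kinase Akt1 was switched on in heart muscle cells. The members are all probe sets of the Affymetrix chips 430A and 430B whose only gene symbol is a Dnaja, Dnajb or Dnajc gene or one of the genes Hspa, Hspb, Hspd1, Hspe1, Hsph1 and Hsp90a, with Hspa5 left out. This gave 164 probe sets of 68 genes, 117 on chip 430A and 47 on chip 430B, of 45137 probe sets in all. A filter that kept the brightest 60% of each chip, set on the mean over all 9 hearts, left 129 of these 164 probe sets (62 genes) among 27083. The 6 genes Dnajb13, Dnajb3, Dnajb7, Dnajc24, Dnajc5b and Hspb9 had no probe set past it. The dimmest member past the filter was a probe set of Dnajb6 on chip 430A (mean signal 140.0) and of Dnajc11 on chip 430B (52.3), and the brightest member below it was of Dnajc5 (125.2) and of Dnajc21 (43.9). Hsp90ab1 is not analysed here.

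All hearts came from male mice that had the genotype Tet-myrAkt1/αMHC-tTA, in which the αMHC-tTA driver acts in heart muscle cells and controls myrAkt1, a constantly active Akt1. The 3 groups held 3 hearts each: hearts at 8 weeks of age before AAC, the operation used to produce the pressure overload; hearts at 12 weeks of age and 4 weeks after AAC; and hearts 6 weeks after AAC with Akt switched on. For the last group the titles give 3 weeks of Akt activation and the descriptions 2 weeks, and its age label, 12 weeks, equals that of the group at 4 weeks. The controls before AAC carried the same transgenes. No hearts of the later ages without AAC, and none at 6 weeks with Akt off, are analysed here, so age and time after AAC cannot be told apart from AAC, nor 2 further weeks from Akt. The labels do not say whether a sample was 1 heart or a pool, and each is called a heart. The p-values measure only the spread between these samples.

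Heat shock proteins bind proteins that are unfolded, newly made or under mechanical strain, and hold or refold them. HSP70 proteins do this in cycles of ATP binding, in which a DnaJ protein delivers the client and starts ATP hydrolysis and an HSP110 protein releases the nucleotide. HSP90 finishes the folding of many kinases and receptors, the chaperonin of HSP60 and HSP10 folds proteins imported into mitochondria, and small heat shock proteins hold clients without ATP. In heart muscle the small heat shock proteins are abundant and are known for binding to the sarcomere and its filaments. Many of these genes are switched on by heat shock factors, which bind repeats of nGAAn in alternating direction upstream of the start.

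The simplest such repeat, GAANNTTC, which is its own reverse complement and so reads alike on both strands, was searched in the 250 bases before the start in the RefSeq promoters of build GRCm38.p6. Of the 68 genes, 55 had a promoter in the table. The repeat stood in 11 of these 55 genes (20.0%), against 7.73% of 27025 genes. The 3-unit form, in which the repeat is followed by NNGAA or preceded by TTCNN, stood in 3 of the 55 (5.46%, Dnajb6, Hspd1 and Hspe1), against 0.514% of all genes. These shares count genes, not separate sites. Hspd1 and Hspe1 hold the same site, and Hspa1a and Hspa1b hold identical stretches, so each pair enters its count as 2 genes. A match is a description of letters, not a site shown to be bound. The genes Dnajc11, Dnajc12, Dnajc18, Dnajc2, Dnajc22, Dnajc30, Dnajc5, Dnajc5b, Hsp90aa1, Hspa13, Hspa8, Hspa9 and Hspb2 were not matched. Stretches of 100 bases are shown for the genes that carry the repeat and had a call in any comparison, since some of them were called higher and others lower, each 5′ to 3′ on the gene's own strand with the repeat in capitals.
Hspe1, chr1:55088018-55088117, plus strand: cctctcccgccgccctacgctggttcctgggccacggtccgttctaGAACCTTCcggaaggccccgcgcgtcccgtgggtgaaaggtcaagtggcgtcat
Dnajb6, chr5:29735798-29735897, plus strand: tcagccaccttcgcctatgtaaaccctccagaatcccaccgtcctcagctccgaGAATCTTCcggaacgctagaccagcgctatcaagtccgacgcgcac
Dnaja4, chr9:54699423-54699522, plus strand: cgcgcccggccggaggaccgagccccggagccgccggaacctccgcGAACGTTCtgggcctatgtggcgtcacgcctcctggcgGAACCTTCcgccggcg
Hspb6, chr7:30553135-30553234, plus strand: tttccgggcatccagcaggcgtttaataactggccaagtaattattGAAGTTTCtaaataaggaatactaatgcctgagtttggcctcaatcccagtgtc
Hspb3, chr13:113663827-113663926, minus strand: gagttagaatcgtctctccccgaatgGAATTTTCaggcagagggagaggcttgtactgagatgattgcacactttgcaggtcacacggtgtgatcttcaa
Hspa1a, chr17:34972207-34972306, minus strand: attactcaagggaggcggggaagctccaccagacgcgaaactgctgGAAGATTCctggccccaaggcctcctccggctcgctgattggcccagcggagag

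The stretch of Hspe1 is also that of Hspd1, read from the other strand, because the genes lie head to head and share this promoter. The Hspa1a stretch is identical, base for base, to that of Hspa1b at chr17:34959289-34959388, and the transcripts of these near-identical genes cannot be told apart with certainty by probe sets. Among the genes with a promoter, the repeat stood in Hspb3 of the 2 that were higher with Akt on than at 4 weeks, and in Hspe1 of the 4 that were lower. It stood in Dnaja4 of 9 genes higher at 4 weeks than before AAC, and in Dnajb6, the 1 gene that was lower. In hearts with Akt on against hearts before AAC it stood in Dnaja4, Hspb3 and Hspb6 of 11 higher genes and in Dnajb6, Hspa1a and Hspe1 of 10 lower ones.

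The values are MAS5 signals, the brightness of a probe set on a linear scale, and changes are differences of log2(signal + 32) with their standard error (SE). A probe set is called, and is said to have risen or fallen, where the adjusted p of limma over all 27083 probe sets is under 0.05. The Akt1 probe set 1425711_a_at had signals of 708, 383 and 496 before AAC, 570.2, 821 and 918 at 4 weeks and 2612, 3765 and 6535 with Akt on, so that the 3 hearts with Akt on lay above all others, and its other 2 probe sets past the filter were not called. The 3′/5′ ratio of the β-actin control signals, which rises as RNA is degraded or shortened, was 1.487, 1.945 and 2.04 on chip 430A before AAC, 1.208, 1.137 and 1.212 at 4 weeks and 1.22, 1.085 and 1.041 with Akt on. On this chip the hearts before AAC did not overlap the others, so the ratio and the group cannot be told apart in the comparisons with them. Atrial transcripts (Nppa, Myl4, Myl7 and Sln) were high (mean log2 level 13.42 to 14.42, against 8.09 to 11.11 in the others) in 4 hearts spread over all groups: replicates 2 and 3 before AAC, replicate 1 at 4 weeks and replicate 1 with Akt on. Of the 51 calls described here (6, 14 and 31 in the 3 comparisons), all 51 remained with the atrial level in the model. With the β-actin ratio in the model 1 call remained, that of Dnajb11 with Akt on against 4 weeks, all 51 kept their direction, and the median size was 0.924, 0.649 and 0.632 times that without it for Akt on against 4 weeks, 4 weeks against before AAC, and Akt on against before AAC. Single calls ran from 0.269 to 1.575 times at 4 weeks against before AAC and from 0.048 to 1.633 times with Akt on against before AAC. Calls were lost over the whole chips as well: with this ratio in the model, of all 27083 probe sets 3 were higher and 0 lower at 4 weeks against before AAC, 0 and 0 with Akt on against before AAC, and 135 and 188 with Akt on against 4 weeks. With each of the 9 hearts left out in turn 10 calls held every time, and they are named below.

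At 4 weeks after AAC, 14 of the 129 chaperone probe sets were called against before AAC (10.9%), where 4.41% of all probe sets were. Nearly all of them went up: 13 rose, with a background of 2.74%, and 1 fell, with a background of 1.68%. The risers came from 11 genes, Hspa4 and Hspa4l of the HSP110 family, Hsp90aa1, the small heat shock proteins Hspb7 and Hspb8, and the DnaJ genes Dnaja2, Dnaja3, Dnaja4, Dnajb4, Dnajb5 and Dnajc30. The median change of the 129 was 0.16, beside -0.04 over all probe sets. Without replicate 3 before AAC the 13 rises were 2, without replicate 2 before AAC 4, without replicate 1 before AAC 6, and without replicates 2 and 1 at 4 weeks 3 and 5. Over all probe sets the 741 rises were 95, 140, 281, 84 and 228 in the same settings.

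With Akt on, 6 of the 129 were called against 4 weeks (4.65%), where 2.54% of all probe sets were. Dnajb11 and Hspb3 rose (background 1.08%), and Dnajb1, Dnajb5, Dnajc21 and Hspe1 fell (background 1.46%). The median change was -0.09, beside 0.02 over all probe sets, with 47 of the 129 above 0 and 82 below. Of all 27083 probe sets 14386 were above 0 and 12697 below. None of these 6 calls held with every heart left out in turn: without replicate 3 at 4 weeks neither the rises nor the falls kept a call, and the same was true without replicate 3 of the hearts with Akt on. In hearts with Akt on against hearts before AAC, 31 of the 129 were called (24.0%, background 13.4%), 19 higher (6.88%) and 12 lower (6.51%), with a median of 0.02 beside -0.01 over all. The 19 were 12, 10 and 8 without replicates 1, 2 and 3 before AAC and 7 without replicate 3 with Akt on, and the 12 were 7, 3, 3 and 3. Over all probe sets the 1862 higher were 1259, 1073, 910 and 995 in the same settings, and the 1763 lower were 1199, 902, 780 and 1120. These comparisons share hearts, so their values are given side by side and are not independent. The shares were not tested against the background. In whole heart RNA, fewer cells of a type and less RNA per cell cannot be told apart.

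**Figure D1:**
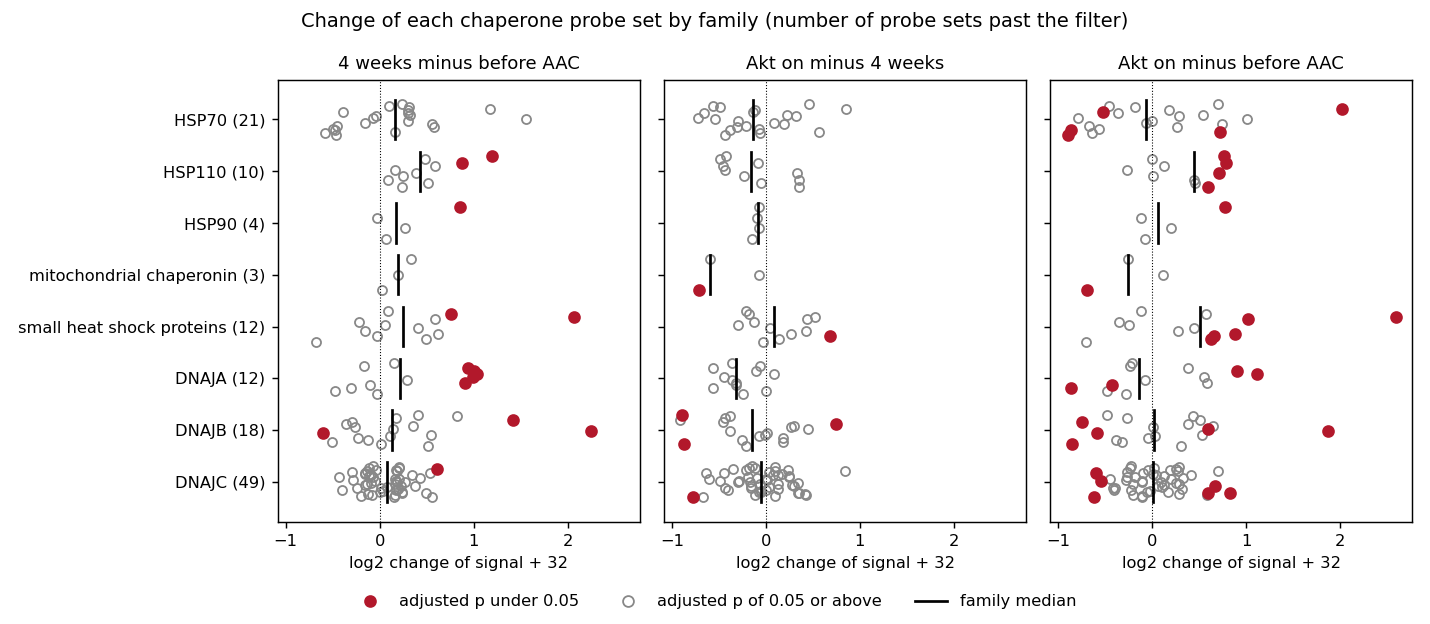
Log2 change (horizontal axis) of each of the 129 chaperone probe sets past the filter, in rows by family, for the 3 comparisons; filled points have an adjusted p under 0.05, open points do not, and the black line is the family median. The 13 filled points right of 0 at 4 weeks lie in the HSP110, HSP90, small heat shock protein and DnaJ rows, and the HSP70 row has none in that panel or in that of Akt on against 4 weeks.

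Of the 12 probe sets of small heat shock proteins past the filter 2 rose at 4 weeks against before AAC, 1 rose with Akt on against 4 weeks, and 5 rose with Akt on against before AAC, with medians of 0.25, 0.09 and 0.51. None fell. The shares of all probe sets that rose were 2.74%, 1.08% and 6.88%. Hspb7, a small heat shock protein of heart and skeletal muscle that associates with the actin and filamin of the sarcomere, had signals of 3516, 1855 and 1684 before AAC, 10595, 11740.3 and 6756 at 4 weeks and 8236, 18615 and 16389.5 with Akt on in probe set 1421289_at. All hearts after AAC lay above all hearts before it, and replicate 1 with Akt on lay among the hearts at 4 weeks. It rose at 4 weeks against before AAC (log2 change 2.07 ± 0.33, adjusted p = 0.011), and with Akt on against before AAC (log2 change 2.59 ± 0.33, adjusted p = 0.0012, the largest change among the members past the filter). A second probe set, 1421290_at, had signals of 12421, 9800.1 and 8710.1 before AAC, 13414, 19156 and 14179.6 at 4 weeks and 17971, 24048 and 20736 with Akt on. It rose with Akt on against before AAC (log2 change 1.02 ± 0.17, adjusted p = 0.0032), and at 4 weeks its change was 0.59 (adjusted p = 0.065). The third, 1434927_at, had 16605, 14266 and 13964 before AAC, 15394, 13960.5 and 11092 at 4 weeks and 17387, 19632 and 17106 with Akt on, and was not called, with changes of -0.16 at 4 weeks against before AAC and 0.43 with Akt on against 4 weeks. The probe sets of Hspb7 thus differed in size and sign at 4 weeks, and in all of them the hearts with Akt on lay above those before AAC. The call of 1421289_at at 4 weeks was lost without 2 of the hearts (adjusted p up to 0.053, without replicate 2 at 4 weeks), and the calls of 1421289_at and 1421290_at against before AAC held without each heart in turn. With the β-actin ratio in the model the changes of 1421289_at were 0.56 at 4 weeks and 0.71 with Akt on against before AAC, with adjusted p of 0.74 and 0.71.

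Hspb6, known as Hsp20, a target of cyclic nucleotide-dependent kinases in muscle, had signals of 8719.8, 10582 and 10468 before AAC, 16656, 16208 and 12947 at 4 weeks and 14006, 22898 and 18959.8 with Akt on. The hearts before AAC lay below all others, and the later groups overlapped. It rose with Akt on against before AAC (log2 change 0.88 ± 0.18, adjusted p = 0.0092), a call that held without each heart, and its change at 4 weeks was 0.62 (adjusted p = 0.076). Hspb3, a muscle protein that forms complexes with Hspb2, had signals of 656, 632 and 609 before AAC, 588, 734 and 549.7 at 4 weeks and 1098, 859.5 and 1107 with Akt on. The other groups overlapped and all lay below the hearts with Akt on, and Hspb3 rose with Akt on against 4 weeks (log2 change 0.68 ± 0.15, adjusted p = 0.038) and against before AAC (log2 change 0.66 ± 0.15, adjusted p = 0.015). The call against 4 weeks was lost when any 1 of 7 hearts was left out, with an adjusted p of up to 0.13 without replicate 3 at 4 weeks.

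Hspb8, which works with Bag3 in the autophagy of damaged muscle proteins, had 3169.9, 2103 and 2365 before AAC, 4250.1, 4199 and 4317 at 4 weeks and 2922, 4809 and 3734 with Akt on. Hspb8 rose at 4 weeks against before AAC (log2 change 0.76 ± 0.18, adjusted p = 0.041), where the groups did not overlap, and with the β-actin ratio in the model its change was 0.21. Another probe set of Hspb8, 1456434_x_at, had a change of -0.68 at 4 weeks, below 0 (adjusted p = 0.25), so the probe sets of this gene disagree. Hspb11, which despite its name is a part of intraflagellar transport, rose with Akt on against before AAC (log2 change 0.63 ± 0.19, adjusted p = 0.046), a call lost when any 1 of 8 hearts was left out. Hspb1, known as Hsp27 and a protector of actin filaments, had signals of 20734, 20678 and 21369 before AAC, 19748, 19046 and 15237 at 4 weeks and 16062, 19096 and 14392 with Akt on in 1422943_a_at. Its hearts after AAC lay below those before it, with a change of -0.35 with Akt on against before AAC that was not called (adjusted p = 0.087). The second, 1425964_x_at, had -0.24 in that comparison and overlapping groups.

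**Figure D2:**
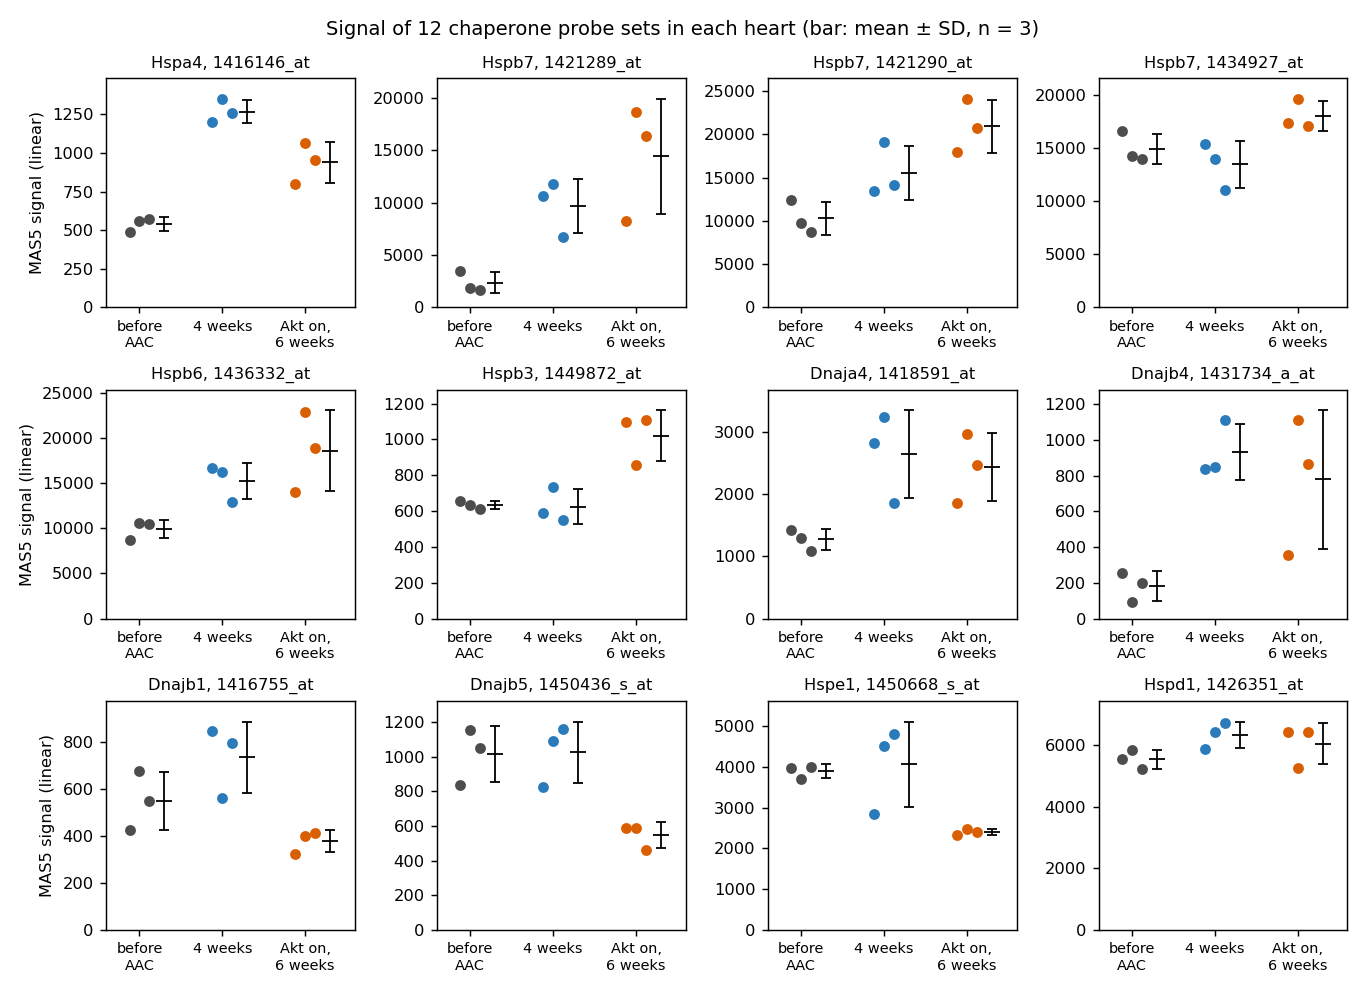
MAS5 signal (vertical axis, linear, from 0) of 12 chaperone probe sets in each of the 9 hearts, by group in time order; points are hearts and the bar beside them is the mean ± SD of 3 hearts. Hspb7 1421289_at, Hspa4, Dnaja4 and Dnajb4 show all hearts after AAC above those before it, while Dnajb1, Dnajb5 1450436_s_at and Hspe1 show the hearts with Akt on below both other groups.

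The HSP110 genes, whose proteins release ADP from HSP70 and so let it start another cycle, rose at 4 weeks in 2 of 10 probe sets and with Akt on against before AAC in 4 of 10, and none fell. Of all probe sets 2.74% and 6.88% rose in these comparisons. At 4 weeks all 10 HSP110 changes were above 0 (median 0.43), where 12292 of all 27083 probe sets were. Hspa4 1416146_at had signals of 485, 559 and 571 before AAC, 1202, 1348 and 1256 at 4 weeks and 797, 1062 and 957 with Akt on. None of the 3 groups overlapped, the hearts at 4 weeks being highest and the hearts before AAC lowest. Hspa4 rose at 4 weeks against before AAC (log2 change 1.19 ± 0.14, adjusted p = 0.0039), 2.28-fold, and with Akt on against before AAC (log2 change 0.76 ± 0.14, adjusted p = 0.0059). Both calls held with each heart left out, and the change at 4 weeks was 1.22 with the β-actin ratio in the model, where its adjusted p was 0.42. Its change of -0.43 with Akt on against 4 weeks was not called (adjusted p = 0.14). Hspa4 had 3 probe sets past the filter, and 1416146_at alone was called. Over the 3 the changes ran from 0.25 to 1.19 at 4 weeks against before AAC. With Akt on against before AAC they ran from -0.001 to 0.76.

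Hspa4l 1418253_a_at, the close relative of Hspa4, had signals of 512, 468 and 444 before AAC, 1068, 1097 and 608 at 4 weeks and 750.4, 871 and 904 with Akt on. Replicate 3 at 4 weeks was much lower than replicates 1 and 2, and still above every heart before AAC. The gene rose at 4 weeks against before AAC (log2 change 0.87 ± 0.20, adjusted p = 0.034) and with Akt on against before AAC in 3 of its probe sets, by 0.78, 0.71 and 0.59 on the log2 scale, with adjusted p of 0.024, 0.024 and 0.036. These Hspa4l calls were each lost without at least 4 of the 9 hearts. Hsph1, or Hsp105, was not called. Its probe set 1425993_a_at had changes of 0.17 at 4 weeks against before AAC and -0.43 with Akt on against 4 weeks, and 1423566_a_at had 0.58 and -0.46.

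The HSP70 family proper, with 21 probe sets, had no call at 4 weeks against before AAC and none with Akt on against 4 weeks by limma, where 7 and 6 of the 21 had an unadjusted p under 0.05. The share of all probe sets at this unadjusted threshold is not given here, so these counts have no background. Several are of the same gene. With Akt on against before AAC 2 rose and 3 fell, where 6.88% and 6.51% of all probe sets did. Hspa8, the constitutive cytosolic HSP70, had signals of 14768, 13938 and 14399 before AAC, 11623, 9846 and 11469 at 4 weeks and 9499.6, 12501 and 8359.5 with Akt on in 1420623_x_at. All hearts after AAC lay below those before it, and the fall with Akt on against before AAC was called (log2 change -0.52 ± 0.14, adjusted p = 0.027), although not without replicate 3 with Akt on (adjusted p = 0.10). Its probe set 1420622_a_at had 0.18 in the same comparison, above 0 and not called. The other named probe sets, 1455789_x_at and 1431182_at, had -0.64 and -0.79, with adjusted p of 0.085 and 0.082. The suffix x marks a probe set whose probes can also match other transcripts.

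The stress-inducible HSP70 genes Hspa1a and Hspa1b had no rise called in any comparison. Hspa1a 1452388_at had signals of 288, 224 and 221 before AAC, 244, 110.2 and 162 at 4 weeks and 128.4, 106 and 123.2 with Akt on, and fell with Akt on against before AAC (log2 change -0.86 ± 0.24, adjusted p = 0.033). Hearts with Akt on lay below those before AAC, and the hearts at 4 weeks overlapped both. This call of Hspa1a was lost without the filter, and when any 1 of 5 hearts was left out (adjusted p up to 0.11, without replicate 1 before AAC). The filter used the mean over all hearts, so the higher hearts before AAC helped this dim probe set past it. The near-identical Hspa1b had no call, with changes of -0.50 and 0.30 at 4 weeks in its probe sets 1452318_a_at and 1427127_x_at and -0.57 and -0.36 with Akt on against before AAC. Hspa1l, the relative found mainly in testis, had signals of 10.7, 66.5 and 76.8 before AAC, 276, 191 and 43.8 at 4 weeks and 249, 272 and 324 with Akt on. It rose with Akt on against before AAC (log2 change 2.02 ± 0.47, adjusted p = 0.016), although its signals before AAC lay close to the pseudocount of 32, so the size of the change depends on it. These signals also lay below 125.2, the mean of the brightest member under the filter on chip 430A. The filter used the mean over all hearts, so the high hearts with Akt on helped Hspa1l past it. The call remained without the filter.

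Hspa12b, a distant HSP70 relative found mainly in endothelial cells, had signals of 333, 272 and 274 before AAC, 226, 182 and 204 at 4 weeks and 128.5, 136 and 163 with Akt on. No group overlapped another, and it fell with Akt on against before AAC (log2 change -0.90 ± 0.17, adjusted p = 0.0063), a call that held without each heart. The summed signal of 5 of 5 endothelial markers (Cdh5, Kdr, Pecam1, Tek and Tie1) lay between 8093.5 and 8880.0 before AAC, between 5030.5 and 6479.3 at 4 weeks and between 5155.5 and 5401.1 with Akt on. Kdr, Tek and Tie1 themselves fell with Akt on against before AAC, with log2 changes of -1.11, -0.50 and -0.78. The other 3 of the 6 endothelial probe sets were not called, and 2 of the 6 were above 0, at most 0.32. Of all probe sets 6.51% fell in this comparison. The part of endothelial RNA in the fall of Hspa12b was not tested. Hspa13, an HSP70 of the endoplasmic reticulum, rose with Akt on against before AAC in 1453172_at (log2 change 0.72 ± 0.20, adjusted p = 0.036).

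Of HSP90 the stress-inducible cytosolic form Hsp90aa1 was measured by 4 probe sets past the filter. Probe set 1426645_at had signals of 1019, 1301 and 1038 before AAC, 1991, 2583 and 1639 at 4 weeks and 2079.7, 1661 and 2079 with Akt on. All hearts after AAC lay above those before it, and the later groups overlapped. It rose at 4 weeks against before AAC (log2 change 0.85 ± 0.18, adjusted p = 0.025) and with Akt on against before AAC (log2 change 0.78 ± 0.18, adjusted p = 0.014). The other 3 were not called: 1437497_a_at, 1438902_a_at and 1433251_at had changes of 0.27, 0.07 and -0.03 at 4 weeks. Without replicate 2 at 4 weeks the adjusted p of 1426645_at was 0.092 for 4 weeks against before AAC.

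Hspe1 and Hspd1, the HSP10 and HSP60 subunits of the mitochondrial chaperonin, share the promoter shown above with its 3-unit heat shock repeat, and with Akt on against 4 weeks a fall was called for Hspe1 and none for Hspd1. Hspe1 1450668_s_at had signals of 3984, 3696 and 4007 before AAC, 2853, 4523 and 4802 at 4 weeks and 2322, 2466 and 2411 with Akt on. The 3 hearts with Akt on lay below all others, and replicate 1 at 4 weeks lay below every heart before AAC. Hspe1 fell with Akt on against 4 weeks (log2 change -0.71 ± 0.17, adjusted p = 0.049) and against before AAC (log2 change -0.69 ± 0.17, adjusted p = 0.020). The call against 4 weeks was lost when any 1 of 8 hearts was left out, with an adjusted p of up to 0.16 without replicate 3 at 4 weeks. The second Hspe1 probe set, 1422579_at, had signals of 914, 819 and 932 before AAC, 931, 1165 and 1308 at 4 weeks and 702, 849 and 668 with Akt on, a change of -0.59 with Akt on against 4 weeks (adjusted p = 0.068). Hspd1 1426351_at had 5569, 5835 and 5224 before AAC, 5866, 6439 and 6718 at 4 weeks and 6449.6, 5275 and 6430.3 with Akt on, a change of -0.07 ± 0.12 (SE, adjusted p = 0.82), in which the groups overlapped. The difference between the changes of Hspe1 and Hspd1 was not tested.

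Across the mitochondrial list (Hspd1, Hspe1, Hspa9, Dnaja3, Dnajc11 and Dnajc15) 13 of 14 probe sets had a change below 0 with Akt on against 4 weeks. Of all 27083 probe sets 12697 did. The median was -0.36 beside 0.02 over all probe sets, and 1 fall was called, that of Hspe1 (background of falls 1.46%). At 4 weeks against before AAC 9 of the 14 were above 0 (median 0.14), and with Akt on against before AAC 10 were below 0 (median -0.24). Of all 27083 probe sets 12292 were above 0 in the first of these comparisons and 13825 below 0 in the other. Several of the 14 are probe sets of the same gene, and the list was described with earlier results of these data known. It does not hold every mitochondrial member: Dnajc30, described below and not on it, had changes of -0.35 with Akt on against 4 weeks (not called) and 0.61 at 4 weeks against before AAC (called). Hspa9, or mortalin, the HSP70 that draws proteins through the inner mitochondrial membrane, had signals of 1677, 1560.2 and 1691 before AAC, 1551, 1639 and 2148 at 4 weeks and 1221, 1091 and 1246 with Akt on in 1418503_at. The hearts with Akt on lay below all others, and the change against 4 weeks was -0.56 (adjusted p = 0.060). Its probe set 1418504_at had -0.49 (adjusted p = 0.098). Its dimmer probe set 1431274_a_at had signals of 199, 54.1 and 42.4 before AAC, 294, 398 and 236 at 4 weeks and 54.2, 282 and 414 with Akt on, which scatter widely within the groups and gave no call. Dnaja3, or Tid1, the DnaJ partner of Hspa9, had changes of -0.45 and -0.32 with Akt on against 4 weeks in its 2 probe sets, neither called.

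**Figure D3:**
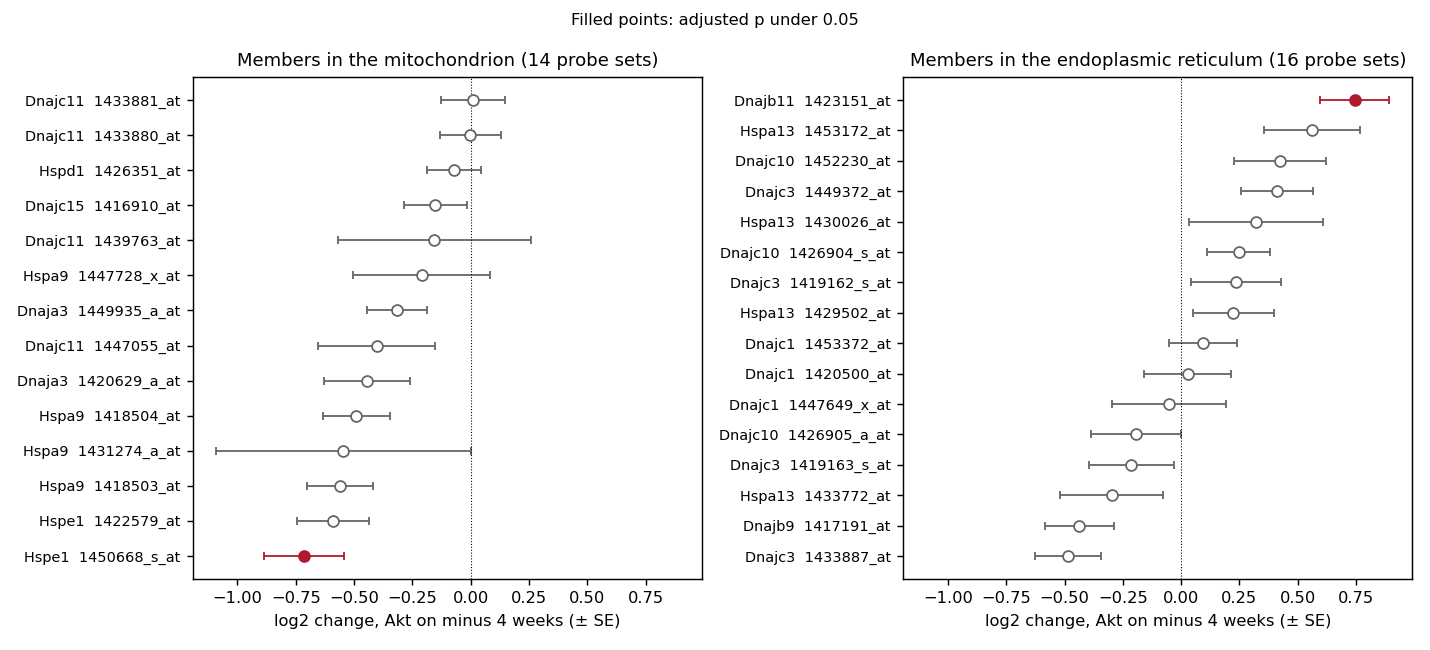
Log2 change with Akt on minus 4 weeks (horizontal axis, ± SE) of the 14 mitochondrial and the 16 endoplasmic reticulum probe sets, each named on the vertical axis; filled points have an adjusted p under 0.05. On the mitochondrial side 13 of 14 lie below 0 and Hspe1 is called. On the other side 10 of 16 lie above 0 and Dnajb11 is called. Of all 27083 probe sets 14386 lie above 0 and 12697 below.

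Of the endoplasmic reticulum members (Hspa13, Dnajb9, Dnajb11, Dnajc1, Dnajc3 and Dnajc10) 10 of 16 probe sets were above 0 with Akt on against 4 weeks (median 0.16), and 1 was called. Of all 27083 probe sets 14386 were above 0 in this comparison (median 0.02), and 2.54% were called. Dnajb14, which is not on this list, had 0.45 and 0.30 there in its 2 probe sets past the filter, neither called. Dnajb11, or ERdj3, a partner of the endoplasmic reticulum HSP70 for secreted proteins, had signals of 789.7, 809 and 907 before AAC, 638, 593 and 702 at 4 weeks and 1094, 928 and 1306 with Akt on. The hearts with Akt on lay above all others and those at 4 weeks lay below all others. Dnajb11 rose with Akt on against 4 weeks (log2 change 0.74 ± 0.15, adjusted p = 0.025), 1.68-fold. It was the call that remained with the β-actin ratio in the model (0.78, adjusted p = 0.049), and it was lost when any 1 of 4 hearts was left out, with an adjusted p of up to 0.082 without replicate 2 at 4 weeks. In the same hearts 5 of 12 fibroblast marker probe sets, of the collagens Col1a1, Col1a2 and Col3a1, rose with Akt on against 4 weeks (background 1.08%). The summed signal of the 5 of 5 fibroblast markers measured lay between 31074.3 and 35808.8 before AAC, between 23159.4 and 34470.3 at 4 weeks and between 32727.9 and 49668.8 with Akt on. The part of fibroblast RNA in the rise of Dnajb11 was not tested. Dnajc3, or p58IPK, an endoplasmic reticulum DnaJ protein that also restrains the kinase Perk, fell with Akt on against before AAC in 1433887_at (log2 change -0.54 ± 0.14, adjusted p = 0.026), while its probe set 1449372_at had 0.28, above 0 and not called.

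The DNAJA family, the cytosolic and mitochondrial partners of HSP70 closest to bacterial DnaJ, held 5 of the 13 rises at 4 weeks in 12 probe sets (median 0.22, background of rises 2.74%). Of the 12, 11 were below 0 with Akt on against 4 weeks (median -0.32) with none called by limma, and 6 of the 12 had an unadjusted p under 0.05. The count at an unadjusted p has no background, and the 12 are probe sets of 4 genes. Of all 27083 probe sets 12697 were below 0 with Akt on against 4 weeks. Dnaja4 was called in all 3 of its probe sets at 4 weeks. In 1418591_at it had signals of 1425, 1299 and 1091 before AAC, 2825, 3230.1 and 1861 at 4 weeks and 1863, 2959 and 2465 with Akt on. In 1418592_at it had 504, 562 and 505 before AAC, 1307, 1373 and 742 at 4 weeks and 963, 1311 and 1281 with Akt on. In both, every heart after AAC lay above every heart before it, and replicate 3 at 4 weeks was the lowest of the hearts after AAC. The rises at 4 weeks against before AAC were 1.01, 1.03 and 0.90 in 1418591_at, 1418592_at and 1434196_at, with adjusted p of 0.027, 0.025 and 0.025, each lost when any 1 of 5 hearts was left out. Probe sets 1418591_at and 1418592_at also rose with Akt on against before AAC. The first changed by 0.90 (adjusted p = 0.018), and the other by 1.12 (adjusted p = 0.0066), a call that held without each heart. With the β-actin ratio in the model the changes of 1418591_at were 0.32 at 4 weeks and 0.04 with Akt on against before AAC, and those of 1418592_at 0.60 and 0.59.

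Dnaja2, a general cytosolic partner of HSP70, had signals of 880.3, 842 and 796 before AAC, 1635, 1528 and 1752 at 4 weeks and 887, 1196 and 1251 with Akt on in 1417183_at. The hearts at 4 weeks lay above all others, and Dnaja2 rose at 4 weeks against before AAC (log2 change 0.94 ± 0.15, adjusted p = 0.010), with an adjusted p of 0.052 without replicate 3 before AAC. Its change with Akt on against 4 weeks was -0.56 (adjusted p = 0.068). On chip 430B the probe set 1429476_s_at had smaller changes in the same directions, 0.29 at 4 weeks against before AAC and -0.36 with Akt on against 4 weeks. A dim probe set of that chip, 1457233_at, fell with Akt on against before AAC (log2 change -0.86 ± 0.23, adjusted p = 0.026), where 1417183_at had 0.38. On chip 430A another Dnaja2 probe set, 1417182_at, had a change of -0.17 at 4 weeks against before AAC, not called (adjusted p = 0.45). Its hearts at 4 weeks all lay below those before AAC, opposite to 1417183_at. Dnaja3 1420629_a_at had 377, 302 and 261 before AAC, 594, 617 and 746 at 4 weeks and 360.4, 526 and 540.4 with Akt on. It rose at 4 weeks against before AAC (log2 change 0.99 ± 0.19, adjusted p = 0.018), while 1449935_a_at fell with Akt on against before AAC (log2 change -0.42 ± 0.13, adjusted p = 0.0495). Dnaja1, the partner of HSP70 also known as Hdj2, was not called, and 1460179_at and 1416288_at had changes of -0.25 and -0.36 with Akt on against 4 weeks. In both, all hearts with Akt on lay below all hearts at 4 weeks. Its probe set on chip 430B, 1459835_s_at, was not called in any comparison, with -0.47 at 4 weeks against before AAC (adjusted p = 0.25).

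The DNAJB family, whose members feed HSP70 and hold aggregates in check, had 2 rises and 1 fall at 4 weeks in 18 probe sets, and 1 rise and 2 falls with Akt on against 4 weeks. The backgrounds of rises and falls were 2.74% and 1.68% at 4 weeks, and 1.08% and 1.46% with Akt on against 4 weeks. Dnajb1, the main heat-inducible DnaJ protein or Hsp40, had signals of 424, 676 and 548 before AAC, 848, 563 and 798 at 4 weeks and 324, 400.3 and 413 with Akt on in 1416755_at. The 3 hearts with Akt on lay below all others, and the other groups overlapped. Dnajb1 fell with Akt on against 4 weeks (log2 change -0.89 ± 0.20, adjusted p = 0.039), 1.85-fold, a call lost when any 1 of 6 hearts was left out, with an adjusted p of up to 0.13 without replicate 3 at 4 weeks. Its second probe set, 1416756_at, had a change of 0.82 at 4 weeks against before AAC (adjusted p = 0.052) and -0.39 with Akt on against 4 weeks (adjusted p = 0.40).

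Dnajb5, a DnaJ protein that in mouse heart muscle binds the deacetylase Hdac4, had signals of 836, 1154 and 1053 before AAC, 828, 1092 and 1163 at 4 weeks and 589.7, 589 and 462 with Akt on in 1450436_s_at. The hearts with Akt on lay below all others, and it fell with Akt on against 4 weeks (log2 change -0.87 ± 0.17, adjusted p = 0.025) and against before AAC (log2 change -0.85 ± 0.17, adjusted p = 0.0090). The call against 4 weeks was lost when any 1 of 4 hearts was left out (adjusted p of up to 0.096, without replicate 3 at 4 weeks), and that against before AAC held without each heart. The dim probe set 1421961_a_at had 80.7, 44.5 and 105 before AAC, 255, 209 and 293 at 4 weeks and 61.3, 181 and 139 with Akt on. It rose at 4 weeks against before AAC (log2 change 1.42 ± 0.32, adjusted p = 0.031), where 1450436_s_at had 0.02, so the probe sets of Dnajb5 disagree there. The filter used the mean over all hearts (152.1 for this probe set), so its high signals at 4 weeks helped it past. Without the filter, or without any 1 of 6 hearts, this call was lost. The 3 probe sets of Dnajb5 were all below 0 with Akt on against 4 weeks, at -0.87, -0.46 and -0.91. With Akt on against before AAC, 1421962_at fell as well (log2 change -0.75 ± 0.19, adjusted p = 0.022). That call was lost when any 1 of 4 hearts was left out. In this comparison 1421961_a_at had 0.51, above 0 and not called, so the probe sets disagree there too.

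Dnajb4, a heat-inducible relative of Dnajb1, had signals of 256, 90.9 and 198 before AAC, 834, 849 and 1112 at 4 weeks and 355, 1113 and 865 with Akt on in 1431734_a_at. All hearts after AAC lay above those before it, and replicate 1 with Akt on was the lowest of the later hearts. Dnajb4 rose at 4 weeks against before AAC (log2 change 2.25 ± 0.37, adjusted p = 0.013), 4.75-fold, and with Akt on against before AAC (log2 change 1.87 ± 0.37, adjusted p = 0.0081), and both calls held without each heart. With the β-actin ratio in the model the change at 4 weeks was 1.31 (adjusted p = 0.67). Its other probe sets past the filter were not called, and 1451177_at had 0.51 at 4 weeks (adjusted p = 0.10).

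Dnajb6, a suppressor of aggregation found at the Z-disc of muscle, whose promoter holds the 3-unit repeat, went the other way. Its probe set 1434035_at had signals of 1984, 2058 and 1869 before AAC, 1205, 1232 and 1433 at 4 weeks and 1449.8, 1325 and 1144 with Akt on. All hearts after AAC lay below those before it, and it fell at 4 weeks against before AAC (log2 change -0.60 ± 0.13, adjusted p = 0.029) and with Akt on against before AAC (log2 change -0.59 ± 0.13, adjusted p = 0.013). The call at 4 weeks was lost when any 1 of 5 hearts was left out, with an adjusted p of up to 0.10 without replicate 2 at 4 weeks. The other probe sets of Dnajb6 past the filter, 1448234_at and 1429777_at, were not called. Against before AAC they had -0.23 and -0.27 at 4 weeks, and -0.05 and 0.005 with Akt on. Dnajb14, a DnaJ protein of the endoplasmic reticulum membrane, rose with Akt on against before AAC in a dim probe set of chip 430B (log2 change 0.60 ± 0.18, adjusted p = 0.045). Dnajb8, an aggregation suppressor known from testis, had signals of 245, 203 and 227 before AAC, 172, 159.9 and 118 at 4 weeks and 175, 212 and 139 with Akt on. Its hearts at 4 weeks lay below those before AAC, with a change of -0.51 that was not called (adjusted p = 0.16).

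The DNAJC family, whose members share little beyond the J domain, had 1 call in 49 probe sets in each of the comparisons of 4 weeks against before AAC and of Akt on against 4 weeks (2.04% in each), where the backgrounds were 4.41% and 2.54%. Dnajc21, a factor in the maturation of the large ribosomal subunit, had signals of 575, 537 and 576 before AAC, 633, 549 and 719 at 4 weeks and 403, 371 and 299 with Akt on. The hearts with Akt on lay below all others, and it fell with Akt on against 4 weeks (log2 change -0.78 ± 0.15, adjusted p = 0.022) and against before AAC (log2 change -0.62 ± 0.15, adjusted p = 0.020). The call against 4 weeks was lost when any 1 of 4 hearts was left out, with an adjusted p of up to 0.092 without replicate 3 at 4 weeks. Dnajc30, a mitochondrial inner membrane protein that associates with the ATP synthase, had 741, 1006 and 979 before AAC, 1446, 1324 and 1398 at 4 weeks and 1041, 1123 and 1084 with Akt on. The hearts at 4 weeks lay above all others, and it rose at 4 weeks against before AAC (log2 change 0.61 ± 0.14, adjusted p = 0.034).

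With Akt on against before AAC, 3 DNAJC probe sets rose and 3 fell of the 49 (12.2%), beside the background of 13.4% given above. Dnajc5, the cysteine string protein of secretory vesicles, rose in 2 probe sets. In 1448851_a_at it had 282, 299 and 188 before AAC, 309.8, 428 and 369 at 4 weeks and 459, 431 and 538 with Akt on, and the hearts with Akt on lay above all others (log2 change 0.83 ± 0.19, adjusted p = 0.014). Dnajc16 rose by 0.67 (adjusted p = 0.017) and Dnajc28 fell, with a change of -0.60 (adjusted p = 0.016). Dnajc8, a DnaJ protein of the spliceosome, lay between 3371 and 4205 over the 9 hearts in 1452683_at and between 429 and 775 in 1431123_s_at. Neither probe set was called, and in 1431123_s_at all hearts at 4 weeks lay above all hearts before AAC, with a change of 0.43 (adjusted p = 0.13).

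Where a gene had several probe sets they often disagreed. Of the 36 member genes with at least 2 probe sets past the filter, 11 had a call at 4 weeks against before AAC, and Dnaja4 alone among these was called in every probe set. In 6 of the 11 (Dnaja2, Dnaja3, Dnajb5, Hsp90aa1, Hspb7 and Hspb8) the probe sets differed in sign. For Akt on against 4 weeks 4 such genes had a call, none in every probe set, and Dnajc21 differed in sign. For Akt on against before AAC it was 19 genes, none in every probe set and 9 with different signs. Where each probe set lies on its transcript was not analysed here.

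**Figure D4:**
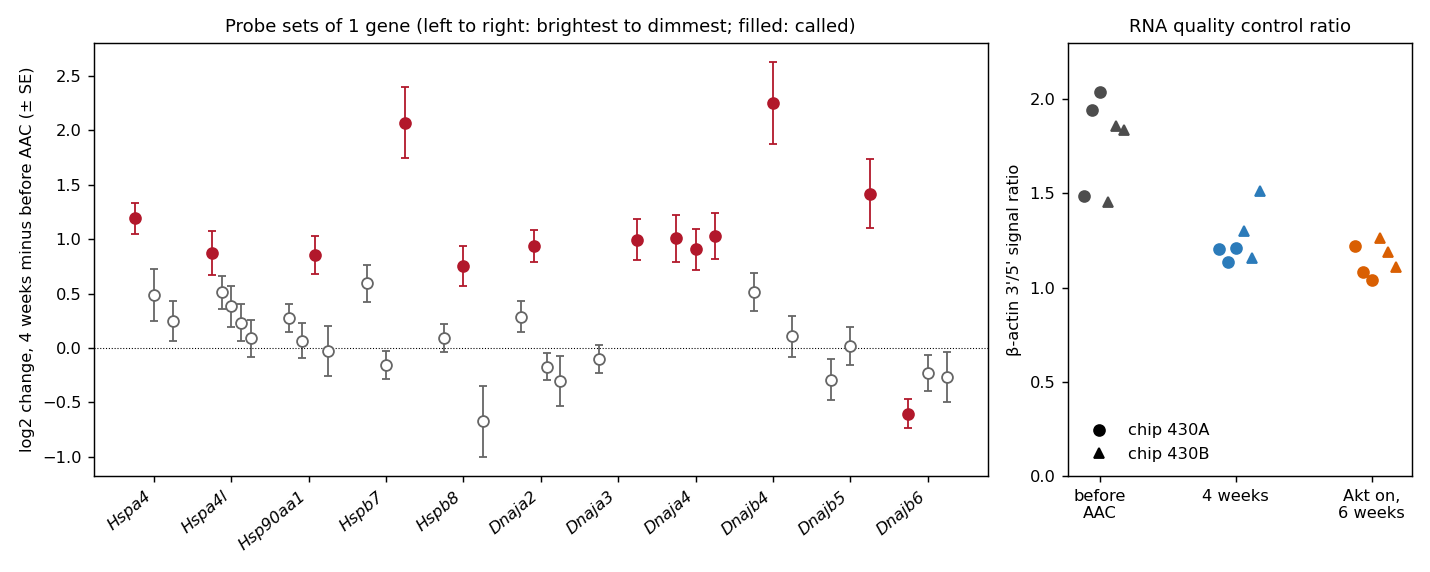
Left, log2 change at 4 weeks minus before AAC (vertical axis, ± SE) of every probe set past the filter of 11 chaperone genes, ordered within a gene from brightest to dimmest, filled where the adjusted p is under 0.05. Right, 3′/5′ ratio of the β-actin signals in each heart on chips 430A (circles) and 430B (triangles), on chip 430A at most 1.22 in the later hearts, against 1.49 to 2.04 before AAC.

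The genes around the members are given as counts beside the backgrounds of 4.41% at 4 weeks against before AAC and 13.4% with Akt on against before AAC. Of the heat shock factors and their binding protein, 5 probe sets of Hsf2, Hsf4, Hsf5 and Hsbp1 passed the filter. Hsbp1, which binds heat shock factor Hsf1 and dampens it, rose at 4 weeks against before AAC (log2 change 0.81 ± 0.14, adjusted p = 0.016) and with Akt on against before AAC (log2 change 1.11 ± 0.14, adjusted p = 0.0013), which makes 1 call of 5 (20.0%) in each. No probe set of the factors themselves was called. Hsf1 is not analysed here. Cryab, or αB-crystallin, the abundant small heat shock protein of heart, lies outside the members, and its 2 probe sets were not called, with changes between 0.32 and 0.44 at 4 weeks against before AAC and between -0.38 and -0.35 with Akt on against 4 weeks.

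Of 37 probe sets of co-chaperones of HSP70 and HSP90, 4 rose (10.8%) and none fell at 4 weeks against before AAC. They belonged to St13, a stabilizer of ADP-bound HSP70 known as Hip, to Cdc37l1, and to Tomm70a, the mitochondrial import receptor at which HSP70 and HSP90 deliver preproteins. Tomm70a 1426675_at had signals of 613, 544 and 568 before AAC, 1031, 1041 and 1001 at 4 weeks and 548, 647 and 607 with Akt on. Tomm70a rose at 4 weeks against before AAC (log2 change 0.80 ± 0.13, adjusted p = 0.011) and fell with Akt on against 4 weeks (log2 change -0.74 ± 0.13, adjusted p = 0.011), the 1 co-chaperone call in that comparison. Stub1, or CHIP, the ubiquitin ligase that marks HSP70 clients for degradation, had signals of 3259.7, 3103 and 3009 before AAC, 2304, 2449 and 2429.9 at 4 weeks and 1909, 1922 and 2000.2 with Akt on in 1416580_a_at. It fell with Akt on against before AAC in both of its called probe sets, with log2 changes of -0.68 and -1.56. In that comparison 8 co-chaperone probe sets were called (21.6%): 4 rose (Bag2, Cdc37l1, Fkbp5 and Tomm70a) and 4 fell (Bag1, Cdc37l1 and Stub1), with the Cdc37l1 probe sets in opposite directions.

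The cytosolic chaperonin TRiC, which folds actin and tubulin, and prefoldin, which brings them to it, had 5 rises (16.7%) and no fall in 30 probe sets at 4 weeks against before AAC, of Cct2, Cct8, Pfdn1 and Vbp1. A total of 7 rose (23.3%) and none fell with Akt on against before AAC, Cct3 among them, and with Akt on against 4 weeks none was called by limma, with 6 at an unadjusted p under 0.05, a count without a background. Of 13 probe sets of mitochondrial partners, Clpx, the unfoldase of the mitochondrial ClpXP protease, rose in 1423447_at at 4 weeks against before AAC (by 1.19) and fell with Akt on against 4 weeks (a change of -0.83, adjusted p = 0.045). Its probe set 1439342_at went the other way at 4 weeks, with a fall (-0.62). The endoplasmic reticulum chaperones outside the members, Hspa5, Hsp90b1, Hyou1 and Sil1, had 2 falls and no rise in 8 probe sets at 4 weeks against before AAC, and 4 falls and no rise with Akt on against before AAC. Hyou1, the HSP110 of the endoplasmic reticulum, had signals of 633, 640.4 and 588 before AAC, 281, 243 and 243 at 4 weeks and 433, 282 and 362 with Akt on, and fell at 4 weeks against before AAC (log2 change -1.18 ± 0.16, adjusted p = 0.0060), opposite in direction to its cytosolic relative Hspa4.

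The label of heart tissue was checked against markers. The summed signal of 6 of 6 heart muscle markers ran from 104826.5 to 148172.8 over the 9 hearts, and no probe set of 4 skeletal muscle markers passed the filter. The heart muscle sums did not overlap between hearts after AAC (at most 125569.3) and before it (at least 133568.6). Single markers went both ways in their 12 probe sets. At 4 weeks against before AAC 1 of Myh6 rose and 1 of Tnni3 fell. With Akt on against before AAC 1 of Ryr2 rose, and 4, of Myh6, Pln, Tnni3 and Tnnt2, fell. Of all probe sets 2.74% rose and 1.68% fell at 4 weeks against before AAC. With Akt on against before AAC 6.88% rose and 6.51% fell. Of the 12 small heat shock protein probe sets 2 rose at 4 weeks and 5 with Akt on against before AAC. The part of muscle cell share in these changes was not tested.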

How the data were processed

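Total RNA of 9 mouse hearts was measured on 18 arrays, each heart on chips 430A and 430B. Per the labels, RNA was isolated with Ultraspec-II and labelled with biotin. The deposited unit is intensity, the linear signal made by the authors with MAS5, per the submitters' processing notes; its version and chip description file are not given in the sources used here. The deposited values had a trimmed mean of 497.27 on chip 430A and 121.61 on chip 430B, so no levels are compared across chips, and none between probe sets. Gene symbols come from GEO's platform annotation, and all members carry the current RefSeq symbol.

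Arrays were rescaled to a trimmed mean shared by their chip (2% off each end), and log2(signal + 32) was taken. For chip 430B this pseudocount equals 130.85 in units of chip 430A. The 60% brightest of the probe sets other than controls were kept on each chip. A model with 3 group means was fitted per chip in R 4.3.3 with limma 3.58.1 (lmFit, eBayes with a variance trend), and two-sided p-values were adjusted by Benjamini-Hochberg over both chips together. Precision is limited by the 3 hearts per group. The fit was tested on simulated data. Promoters were searched for GAANNTTC in the RefSeq table.

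Named were all members called in any comparison, in each comparison the 5 largest rises and 5 largest falls whose groups did not overlap, the brightest probe set of each family, and Hspa1a, Hspa1b, Hspa8, Hspa9, Hsp90aa1, Hspd1, Hspe1, Hsph1, Hspb1, Hspb7, Dnaja1 and Dnajb1. The members and all lists (families, compartments, pathway genes, cell markers) were chosen with earlier results of these data known. Replicate 3 at 4 weeks has the number 1 in its description; this heart correlated with replicate 1 at r = 0.9613, within the range of all replicate pairs (0.9501 to 0.9755), and was counted as a sample of its own. Quantile scaling, other pseudocounts and filters, 1 probe set per gene, no variance trend, fits to 2 groups, the replicate number as a block, p adjusted per chip, the mean of 4-week replicates 1 and 3 as 1 sample and leaving out each heart were tried as well, and 2 settings were chosen after seeing the data, the β-actin ratio and the atrial level as covariates.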

Additional observations from a re-analysis of the deposited data

How the results depend on the processing

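None of the 51 calls reversed its direction under any alternative that was run. The cause of a lost call was not tested, except that leaving out a heart also lowers the number of samples. With each heart left out in turn, the rises and falls at 4 weeks against before AAC ran from 2 to 18 and from 0 to 3, those with Akt on against 4 weeks from 0 to 2 and from 0 to 3, and those with Akt on against before AAC from 7 to 22 and from 3 to 13, with medians of 0.1214 to 0.1664, -0.1176 to -0.0758 and 0.0204 to 0.0795. With 1 probe set per gene there were 6 rises at 4 weeks and 10 with Akt on against before AAC, and the median of the comparison with Akt on against before AAC was -0.0281. With Akt on against 4 weeks the 2 rises and 4 falls became 1 and 2 without the filter, without the variance trend, with the replicate block and with 4-week replicates 1 and 3 averaged, 0 and 0 with only the 2 groups compared in the fit, and 7 falls with p adjusted within each chip. The 1 fall at 4 weeks was 0 with the replicate block or the averaged replicates, and 4 with only the 2 groups in the fit. Without the filter the median at 4 weeks was 0.1027. With the β-actin ratio as a covariate 1 rise (Akt on against 4 weeks) and 0 other calls remained, with medians of 0.2108 at 4 weeks and 0.1262 with Akt on against before AAC; of all 27083 probe sets 3 were then called at 4 weeks and 0 with Akt on against before AAC. The replicate block also gave 9 rises at 4 weeks, and 16 rises and 9 falls with Akt on against before AAC. Deviations from the group means correlated with r from -0.2391 to 0.1432 between same-numbered hearts of different groups on chip 430A. The labels state no pairing, and these values alone cannot settle whether the numbers pair the samples. Of the 51 calls, 49 were kept with quantile scaling, 49 with a pseudocount of 8, 51 with a larger one, 50 after chip 430B had been raised to the level of chip 430A, 37 without the filter, 46 of 46 with the brightest 40%, 29 of 29 with 1 probe set per gene, 40 without the variance trend and 51 with the atrial level. Member probe sets below the filter were tested only in the alternative without it, so low signal limits what can be said of them.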
